A study of Danio rerio with 12 samples.

Results

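Radial glia of the adult zebrafish brain were compared with all other brain cells of the same control injection. The fish were Tg(her4.1:EGFP), 6 months old, in which regulatory sequence of her4.1 drives a green fluorescent protein (GFP). They had received CPP, the control peptide, into the ventricle of the brain, and the brains were dissociated 48 hours later and sorted by fluorescence. GFP-positive cells, the fraction labelled by the reporter, are called radial glia below. This fraction may also hold other cells or their RNA, and its purity was not tested. GFP-negative cells are everything else that survived dissociation, a mix of neurons, oligodendrocytes, immune, vascular and surface cells and of any radial glia with too little GFP. Each fraction has 3 libraries, so the comparison uses 6 of the 12 libraries of the series, and 20237 of 31953 genes passed the count filter. The other 6 libraries hold the same 2 fractions from fish of the same line, age and time that received the amyloid-β42 peptide AB42 in place of CPP. They enter the comparison through the count filter, which used all 4 groups, and through the shared estimate of the spread. The scaling of the libraries was also computed over all 12. The labels do not say whether replicate libraries are from separate fish, so the p-values measure the spread between libraries, which may be technical.

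Radial glia are the neural stem cells and, at the same time, the astroglia of the fish brain. Their cell bodies line the ventricle, their long processes cross the tissue, and Notch signalling through transcriptional repressors of the Her family keeps most of them quiescent. They take up glutamate and GABA released by neurons, buffer potassium and pH, feed neurons with metabolites and make new neurons throughout life. Fish have few star-shaped astrocytes of the mammalian kind, so genes that mark astrocytes in mammals are mostly found in radial glia here.

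Total counts ran from 9262838 to 15584769 per library. The first principal component of the 6 libraries set the fractions apart and accounted for 90.3% of their variance. The second accounted for 2.92% and set GFP-positive replicate 3 apart from GFP-positive replicates 1 and 2. The fractions differed over most of the transcriptome. By edgeR's quasi-likelihood test with Benjamini-Hochberg adjustment, 14782 genes (73%) passed an adjusted p of 0.05, 7517 of them higher (37.1%) and 7265 lower (35.9%) in radial glia. These shares are the background against which each gene group below has to be read. At least 2-fold changes were seen for 4023 genes upward (19.9%) and 4708 downward (23.3%), and the 3 libraries of one fraction all lay outside the range of the other for 74.1% of genes. The largest differences leaned upward: 354 genes were at least 16-fold higher and 149 at least 16-fold lower, and at 64-fold the numbers were 57 and 21. Without GFP-positive replicate 3, 3976 genes were at least 2-fold higher and 4635 at least 2-fold lower.

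Levels are CPM, counts divided by a TMM-scaled library total, as mean ± SD over 3 libraries, and fold changes are radial glia over other cells. The zero point of the comparison depends on the scaling. The median log2 fold change of all genes was 0.01 with TMM scaling and -0.47 with library totals, under which 4630 genes were higher and 10673 lower. Gene groups whose median or majority changes direction with library totals are named as such. Their counts with library totals have to be read against these 4630 and 10673 of 20237 genes. In a bulk library, fewer cells of a type and less RNA per cell cannot be told apart.

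The reporter gene came out as the label says. The Notch target her4.1 (ENSDARG00000056732) at chromosome 23, 21526006 to 21527063, minus strand of GRCz10 stood at 33.6, 30.7 and 32.6 CPM in the GFP-negative and 2260.3, 2111 and 2461 CPM in the GFP-positive libraries. The fractions did not overlap, and the difference was 70.6-fold (log2 6.14 ± 0.07 SE, edgeR adjusted p = 5.74e-40). Reads from the near-identical copies her4.1 to her4.5 may be shared between them. All 5 copies rose by 61.4-fold to 75.2-fold.

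**Figure D1:**
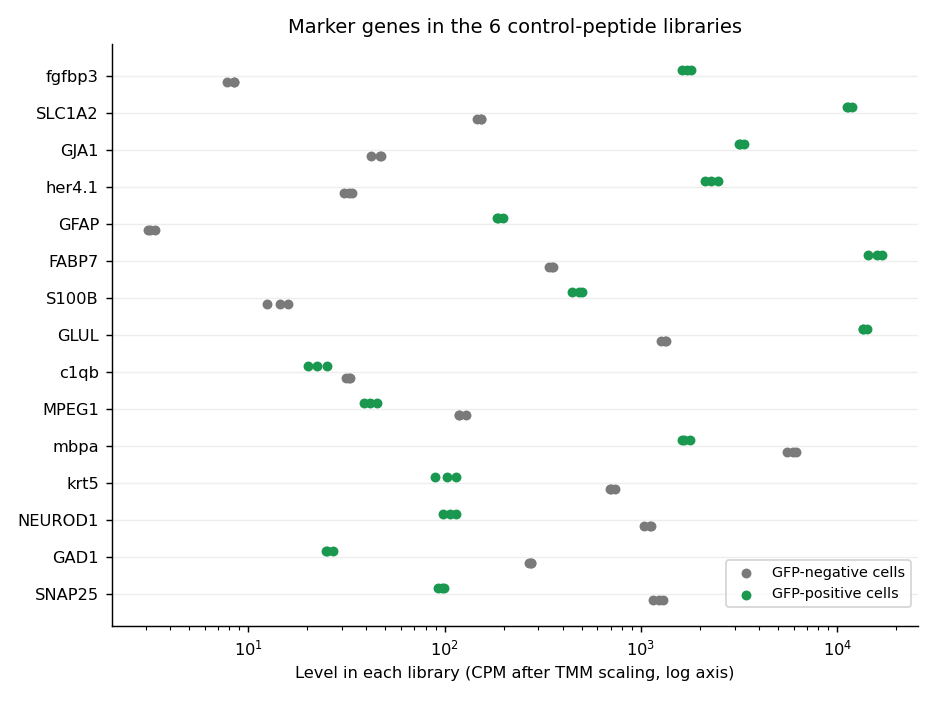
Level of 15 genes in each of the 6 control-peptide libraries, as CPM after TMM scaling on a log axis, with GFP-negative libraries in grey and GFP-positive libraries in green. Each point is 1 library; 8 radial glia genes lie higher in the 3 green points, from GLUL to fgfbp3, and 7 genes of neurons, oligodendrocytes, microglia and epithelium lie higher in the 3 grey points.

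Radial glia markers rose together, with a few exceptions. Of 36 listed marker genes tested, 31 rose and 4 fell, with a median log2 fold change of 3.91 against 0.01 over all genes. The list holds her4.1 and her4.2, whose rise is not separate from the sort by a her4.1 reporter. The intermediate filament gene GFAP (ENSDARG00000025301) at chromosome 3, 31660727 to 31672767, minus strand stood at 3.17, 3.10 and 3.33 CPM in the GFP-negative and 185, 187 and 199 CPM in the GFP-positive libraries. It was 59.1-fold higher in radial glia (log2 5.88 ± 0.10 SE, edgeR adjusted p = 2.69e-34), but its level was modest beside that of other markers. The calcium-binding protein S100B rose from 14.3 ± 1.67 to 476 ± 26.5 CPM, the growth factors PTN from 8.43 ± 0.0976 to 453 ± 9.99 CPM and MDK (ENSDARG00000036036) from 75.0 ± 5.59 to 1461 ± 93.9 CPM, the stem cell factor SOX2 from 4.47 ± 0.272 to 46.1 ± 3.50 CPM and the RNA-binding protein MSI1 from 16.9 ± 1.99 to 543 ± 13.04 CPM. None of these genes had overlapping libraries. Both copies of the fatty acid binding protein FABP7 rose, ENSDARG00000007697 from 348 ± 8.46 to 15652 ± 1283 CPM and ENSDARG00000034650 from 8.75 ± 0.974 to 43.2 ± 6.33 CPM. One SOX9 copy (ENSDARG00000003293) rose 10.1-fold, whereas the other (ENSDARG00000043923) stood at 8.17 ± 1.46 and 10.3 ± 2.13 CPM and did not pass the test (adjusted p = 0.096 by edgeR, but 0.035 without GFP-negative replicate 3 and 0.032 without GFP-positive replicate 2). Its log2 fold change of 0.31 is -0.17 with library totals. The 4 members that fell were MFGE8 (ENSDARG00000045803, 6.26-fold lower), CYP19A1 (ENSDARG00000041348, 1.80 ± 0.246 to 0.377 ± 0.252 CPM), the second SLC4A4 copy (ENSDARG00000044808) and cspg5a. The fall of that SLC4A4 copy, log2 -0.51, was not called without GFP-negative replicate 1 or without GFP-positive replicate 3 (edgeR adjusted p = 0.11 and 0.14). The marker listed was cyp19a1b, which was matched to this CYP19A1 on chromosome 18 by removal of the paralog letter. The name table does not say which of the fish aromatase genes it is. Its fall can therefore not be read as a fall of cyp19a1b.

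Ranked per length, the most abundant transcripts of radial glia included known glial genes. TPM values, which are scaled to the same total in each library, divide counts by exon length and can be compared between genes. After the nuclear RNA malat1, the highest TPM in radial glia belonged to FABP7 (36325 ± 1673 TPM, against 1181 ± 10.4 TPM in other cells) and to GLUL (ENSDARG00000099776), the glutamine synthetase that turns glutamate into glutamine (12568 ± 229 against 1753 ± 41.7 TPM). The glutamate transporter SLC1A2 and her4.2 were also among the 15 highest, at 5323 ± 353 and 5629 ± 161 TPM. In other cells these stood at 102 ± 3.58 and 121 ± 5.35 TPM. The 15 highest of the other cells included the myelin genes mbpa (6384 ± 179 TPM) and plp1b (4896 ± 117 TPM), the microtubule regulator STMN1 (ENSDARG00000033655, 6966 ± 265 TPM) and the actin-binding peptide tmsb4x (5529.6 ± 342 TPM). In radial glia these stood at 1255 ± 20.9, 1687 ± 1.60, 2071 ± 60.1 and 2323 ± 190 TPM. Genes induced within minutes to hours of tissue handling were high in both fractions. The chaperone genes hsp70l, HSPA2, hsp70.1 and hsp70.3, near-identical copies that may share reads, were among the 15 highest of each, at 8041 to 10139.9 TPM in other cells and 8533 to 11122 TPM in radial glia. These TPM are not TMM-scaled, unlike the fold changes that follow, so differences between the fractions cannot be set side by side. The immediate early genes FOS and JUNB were 5.23-fold and 3.51-fold higher in radial glia, and JDP2 was 9.37-fold higher. FOS stood at 1537, 1431 and 1579.8 CPM in the GFP-negative and 7797, 7727 and 8257 CPM in the GFP-positive libraries. The part of the dissociation in these differences was not tested.

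Transporters that clear neurotransmitters were among the strongest differences. The glutamate transporter SLC1A2 (ENSDARG00000102453) at chromosome 25, 36796114 to 36837199, plus strand stood at 146, 153 and 154 CPM in the GFP-negative and 11236, 11936 and 11352 CPM in the GFP-positive libraries. The fractions were 76.2-fold apart (log2 6.25 ± 0.05 SE, edgeR adjusted p = 1.25e-44). The GABA transporter SLC6A11 rose from 14.5 ± 1.43 to 938 ± 122 CPM (64.3-fold), the glutamate transporter SLC1A3 (ENSDARG00000043148) from 52.4 ± 2.47 to 1472 ± 75.8 CPM and the glycine transporter SLC6A9 from 14.4 ± 1.29 to 194 ± 11.8 CPM. Of 24 genes of transmitter uptake and the glutamine cycle 19 rose and 5 fell. Glutamine synthetase GLUL (ENSDARG00000099776) rose from 1312 ± 41.6 to 13715 ± 365 CPM. Among all solute carriers, 315 genes tested, 130 rose and 122 fell, against 89 and 168 with library totals, yet their summed level was 28249 to 29187 CPM in radial glia and 10060 to 10223 CPM in other cells.

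Some genes of ion and water handling rose steeply. The sodium bicarbonate cotransporter SLC4A4 (ENSDARG00000013730) at chromosome 5, 45147260 to 45276787, minus strand stood at 39.4, 46.2 and 36.4 CPM in the GFP-negative and 1589, 1683 and 1504 CPM in the GFP-positive libraries. The fractions did not overlap, and it was 39.2-fold higher in radial glia. Genes of β chains of the sodium pump family differed in direction: ATP1B4 rose from 36.2 ± 2.22 to 1776 ± 55.9 CPM, the ATP1B1 copy ENSDARG00000013144 rose from 260.2 ± 9.85 to 657 ± 22.8 CPM, and the ATP1B1 copy ENSDARG00000076833 fell from 414 ± 11.1 to 55.5 ± 3.08 CPM. The inward rectifier KCNJ10 (ENSDARG00000105022), which carries potassium into glia, rose from 0.481 ± 0.238 to 25.7 ± 2.60 CPM. The water channel AQP1 (ENSDARG00000023713) rose from 4.89 ± 0.320 to 433 ± 12.7 CPM, the carbonic anhydrase cahz from 109.9 ± 12.4 to 469 ± 12.5 CPM and the ammonia transporter RHBG from 2.46 ± 0.812 to 251 ± 11.5 CPM. By count, the group of potassium, water and acid-base genes leaned downward: 13 of 31 rose, 15 fell, and the median log2 fold change was -0.44. Its summed level was 13867 to 14446 CPM in radial glia against 1614 to 1647 CPM in other cells. The genes named here hold only part of that sum.

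Gap junction genes were divided between the fractions. Connexin 43, encoded by GJA1 (ENSDARG00000041799), couples glia to each other and stood at 47.5, 46.9 and 42.3 CPM in the GFP-negative and 3193, 3172 and 3334 CPM in the GFP-positive libraries, 71.2-fold higher in radial glia (log2 6.15 ± 0.06 SE, edgeR adjusted p = 3.52e-41). The neuronal connexins GJD2 (ENSDARG00000070781) and GJD2 (ENSDARG00000067999) fell from 14.3 ± 1.27 to 1.53 ± 0.0975 CPM and from 11.7 ± 0.947 to 1.38 ± 0.450 CPM. Of 27 gap and tight junction genes 7 rose and 16 fell. The claudins cldn7a and cldn7b lay on opposite sides, the first rising from 7.601 ± 0.382 to 89.7 ± 4.70 CPM and the second falling from 21.3 ± 1.22 to 3.58 ± 1.89 CPM.

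Genes of glucose metabolism moved both ways. Of 71 genes of glucose, glycogen and lactate metabolism 32 rose and 21 fell, with a median of 0.06, which becomes -0.42 with library totals. The enolase ENO1 (ENSDARG00000013750) stood at 43.6, 34.8 and 36.5 CPM in the GFP-negative and 981, 964 and 1056 CPM in the GFP-positive libraries. The neuronal enolase eno2 stood at 319.8, 311 and 331 CPM in the GFP-negative and 28.8, 28.7 and 32.6 CPM in the GFP-positive libraries. The first was 26.3-fold higher and the second 10.7-fold lower in radial glia, with no overlap in either. Phosphofructokinase followed the same pattern: the liver-type PFKL (ENSDARG00000099755) rose from 18.8 ± 2.51 to 163 ± 5.23 CPM, and the platelet-type PFKP (ENSDARG00000028000) fell from 387 ± 18.7 to 84.2 ± 2.59 CPM. The glucose transporter slc2a3a, of the type found in neurons, fell from 113 ± 3.25 to 16.03 ± 0.729 CPM, while the SLC2A1 copy ENSDARG00000007412 rose from 25.8 ± 3.996 to 77.9 ± 13.003 CPM and the other, ENSDARG00000001437, fell from 10.998 ± 1.22 to 2.85 ± 0.806 CPM. The glycogen phosphorylases PYGB, PYGM and PYGL rose (4.16-fold, 2.01-fold and 3.74-fold). Pyruvate dehydrogenase kinases PDK2 (ENSDARG00000020876) and PDK4, which hold back the entry of pyruvate into the citric acid cycle, rose 3.66-fold and 5.52-fold. The glycogen and kinase genes of these last 2 sentences and SLC2A1 were chosen after their values were seen.

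Genes of serine and glycine metabolism mostly rose. The enzyme that starts serine synthesis from a glycolytic intermediate, PHGDH (ENSDARG00000001873), stood at 13.8, 13.9 and 13.6 CPM in the GFP-negative and 741, 793 and 815 CPM in the GFP-positive libraries. The fractions were 56.9-fold apart (log2 5.83 ± 0.07 SE, edgeR adjusted p = 3.10e-38). The glycine cleavage proteins GLDC and AMT rose from 5.84 ± 1.32 to 159 ± 7.05 CPM and from 1.76 ± 0.597 to 25.6 ± 1.32 CPM, the serine racemase srr from 0.455 ± 0.143 to 6.58 ± 1.56 CPM and the cystathionine synthase CBS from 1.18 ± 0.556 to 20.2 ± 2.50 CPM. Of 32 genes of serine, glycine and folate-linked metabolism 23 rose and 7 fell (median log2 1.56).

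Lipid and antioxidant genes leaned the same way. The elongase ELOVL2, which lengthens polyunsaturated fatty acids, rose from 1.86 ± 0.471 to 124 ± 3.96 CPM, the acyl-CoA synthetase acsl2 from 2.56 ± 0.664 to 329.7 ± 39.3 CPM, and the mitochondrial β-oxidation genes hadhaa and ACADL from 32.1 ± 2.37 to 222 ± 4.68 CPM and from 40.8 ± 1.18 to 250.4 ± 11.4 CPM. Of 67 lipid genes 40 rose and 17 fell with TMM scaling, against 28 and 25 with library totals. With library totals 4630 of all 20237 genes were higher and 10673 lower. The fatty acid carrier CD36 and the receptor pparg, both known from macrophages and fat, fell from 12.3 ± 3.18 to 2.28 ± 0.129 CPM and from 7.56 ± 1.59 to 1.64 ± 0.697 CPM. Of 45 glutathione and antioxidant genes 32 rose and 5 fell, led by the quinone reductase NQO1 (1.66 ± 0.414 to 66.0 ± 3.45 CPM, 40.9-fold) and the glutathione transferase gstt1b (2.48 ± 0.0836 to 49.8 ± 3.21 CPM). The cystine importer slc7a11, which supplies glutathione synthesis, rose from 1.63 ± 0.331 to 21.5 ± 1.33 CPM, and catalase (CAT) from 88.9 ± 1.88 to 333 ± 16.8 CPM. By family, 17 of 22 glutathione transferases, 16 of 20 aldehyde dehydrogenases and 36 of 54 cytochromes P450 rose, while 2, 0 and 11 fell.

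Among the 20 largest rises were genes known from vitamin A metabolism. The retinol esterifying enzyme lratb.1 (ENSDARG00000096594) stood at 2.45, 1.65 and 2.08 CPM in the GFP-negative and 223, 206 and 243 CPM in the GFP-positive libraries. It and RPE65 (ENSDARG00000054420), the isomerase known from the visual cycle of the eye, rose 109.9-fold and 89.0-fold. Other genes of the pathway were looked at after these values were seen. The retinol importer STRA6 rose from 10.1 ± 1.51 to 108 ± 2.65 CPM, the retinoic acid producing ALDH1A2 from 9.49 ± 1.65 to 102 ± 6.75 CPM and the retinoic acid degrading CYP26B1 from 12.99 ± 1.40 to 424 ± 15.9 CPM. RPE65 is a family of 3 genes in the table, and all 3 rose, the others ENSDARG00000094752 and ENSDARG00000007480 by 56.5-fold and 6.59-fold. The plasma retinol carrier RBP4 fell from 49.3 ± 2.06 to 6.04 ± 1.77 CPM. These symbols come from a name table that labels fish genes by their human relatives.

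Hormone enzymes gave single genes rather than a group. Of 42 neurosteroid, estrogen and thyroid hormone genes 19 rose and 17 fell, against 14 and 19 with library totals. The deiodinase DIO2, which activates thyroid hormone, rose from 17.4 ± 2.83 to 182 ± 9.83 CPM and HSD17B3, which makes testosterone from its precursor, from 4.51 ± 0.632 to 79.1 ± 5.296 CPM. The thyroid hormone transporter SLCO1C1 fell from 11.9 ± 2.04 to 2.47 ± 0.811 CPM.

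**Figure D2:**
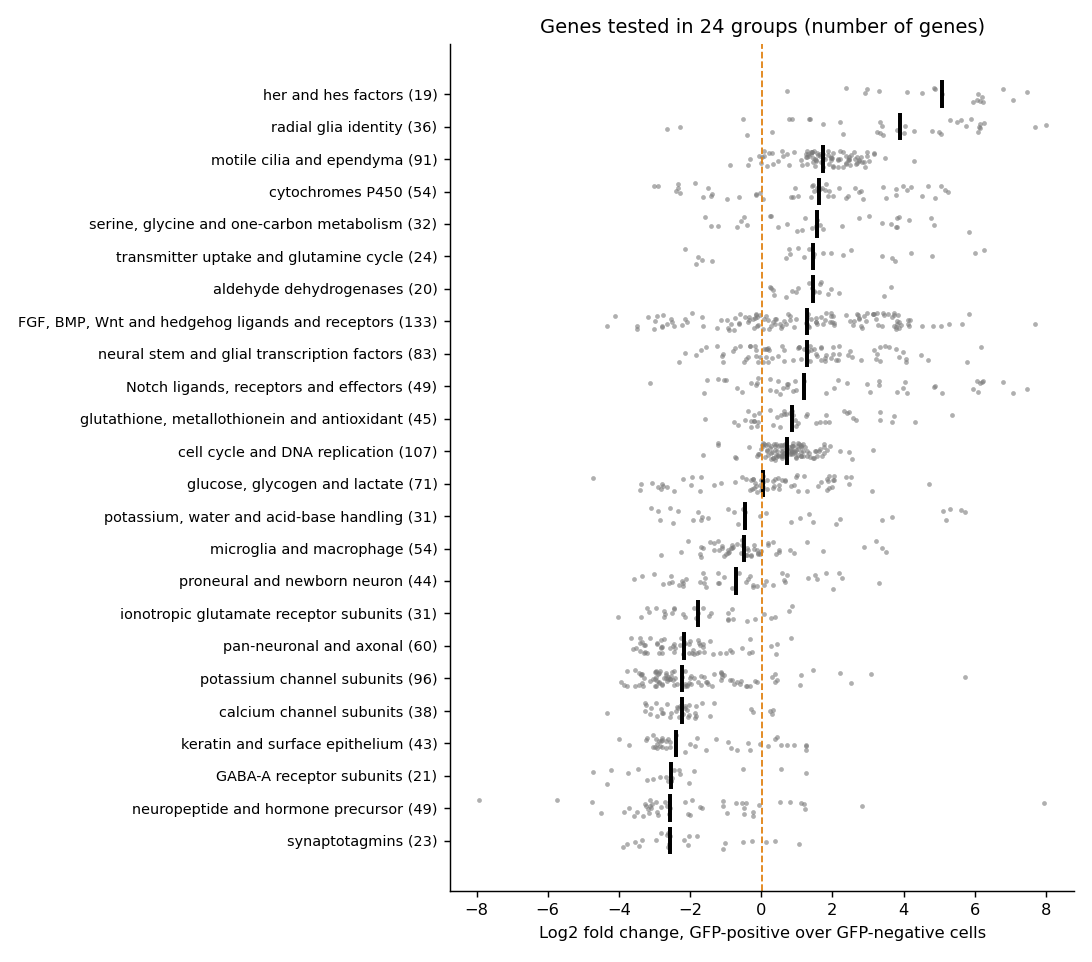
Log2 fold change of radial glia over other cells for every gene tested in 24 gene groups and families, 1 grey point a gene, with a black bar at the median of the group and a dashed line at the median of all genes (0.01). The her and hes family and the radial glia markers lie furthest to the right, and the synaptotagmins, neuropeptide precursors and GABA-A receptor subunits lie furthest to the left.

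Notch receptors and most effectors were higher in radial glia. All 19 her and hes genes tested rose (19 of 19, median log2 5.07). Among them are the 5 her4 copies, which may share reads. The cells were sorted by a her4.1 reporter, so the rise of these copies is not separate from the sort. The repressors her8a, her2 and her15.1 rose from 0.431 ± 0.225 to 62.4 ± 7.69 CPM, from 1.56 ± 0.483 to 113 ± 6.198 CPM and from 14.9 ± 0.479 to 501 ± 24.5 CPM. The related HEY1 rose from 9.50 ± 1.25 to 163 ± 8.62 CPM and heyl from 0.0896 ± 0.0203 to 11.1 ± 0.492 CPM. Of the receptors, NOTCH3 stood at 8.43, 8.05 and 4.04 CPM in the GFP-negative and 97.5, 97.1 and 82.3 CPM in the GFP-positive libraries and was 14.0-fold higher in radial glia, against 4.15-fold and 1.97-fold for the NOTCH1 copies ENSDARG00000052094 and ENSDARG00000103554 and 1.52-fold for notch2, whose log2 fold change is 0.13 with library totals. Ligands were split. The vessel ligand dll4 fell 2.07-fold, whereas jag1b rose 5.34-fold. The fringe enzymes, which tune how receptors answer ligands, also differed: LFNG rose from 13.7 ± 1.85 to 228 ± 6.84 CPM and mfng fell from 28.5 ± 1.38 to 9.33 ± 1.96 CPM. NRARP, a feedback inhibitor that Notch induces, rose in both copies (ENSDARG00000091419 from 35.6 ± 1.17 to 563 ± 32.8 CPM and ENSDARG00000018958 from 4.86 ± 1.06 to 47.2 ± 7.54 CPM). Over the whole list, which also holds her4 genes, 36 of 49 genes rose and 7 fell. The receptor, ligand and NRARP genes other than NOTCH3 and dll4 were chosen after their values were seen.

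Genes of 4 other growth signals mostly rose. Of 133 FGF, BMP, Wnt and hedgehog genes 78 rose and 33 fell (median log2 1.28). The FGF carrier fgfbp3 (ENSDARG00000040162) stood at 8.43, 8.47 and 7.76 CPM in the GFP-negative and 1709, 1616 and 1793 CPM in the GFP-positive libraries and was 208-fold higher. The receptor FGFR2 rose from 4.78 ± 1.14 to 189 ± 17.8 CPM. The other receptors FGFR3, fgfr4 and both FGFR1 copies rose 8.84-fold, 6.63-fold, 2.91-fold and 2.91-fold. The FGF genes named here were low, and not all of them need encode ligands of these receptors. FGF22 rose from 0.114 ± 0.142 to 7.31 ± 0.813 CPM. FGF14 and FGF20 fell from 8.36 ± 1.15 to 1.03 ± 0.150 CPM and from 10.02 ± 1.44 to 0.889 ± 0.209 CPM. In the BMP pathway the target ID1 rose from 9.47 ± 0.265 to 268 ± 31.0 CPM and the secreted BMP inhibitor nog2 from 1.02 ± 0.578 to 63.5 ± 14.8 CPM, whereas ID4 fell from 74.6 ± 5.999 to 19.6 ± 3.09 CPM. Wnt genes moved both ways: WNT7A (ENSDARG00000044827) rose from 38.7 ± 1.26 to 546 ± 21.6 CPM, and the Wnt inhibitor dkk1b fell from 19.1 ± 0.491 to 1.08 ± 0.173 CPM. On the hedgehog side the transducer SMO rose from 2.30 ± 0.264 to 52.5 ± 5.69 CPM, the coreceptors BOC and GAS1 (ENSDARG00000067984) from 12.2 ± 1.31 to 215 ± 14.8 CPM and from 4.92 ± 1.08 to 161 ± 3.97 CPM, and the effector GLI1, itself a target of the pathway, from 0.582 ± 0.204 to 10.96 ± 0.834 CPM. The ligand SHH (ENSDARG00000068567) rose from 4.79 ± 0.828 to 31.3 ± 2.29 CPM. FGFR1, FGFR3, fgfr4, ID4, WNT7A, SMO, BOC, GLI1 and SHH were chosen after their values were seen.

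Stem cell transcription factors mostly rose, and the regional factors were divided. Of 83 neural stem and glial factors 53 rose and 14 fell. The SoxB1 gene sox19a (ENSDARG00000010770), whose relatives keep neural progenitors undifferentiated, stood at 5.17, 6.47 and 6.12 CPM in the GFP-negative and 419, 424 and 446 CPM in the GFP-positive libraries. It was 71.7-fold higher in radial glia (log2 6.16 ± 0.08 SE, edgeR adjusted p = 2.45e-37). SOX3 rose from 16.3 ± 1.43 to 416 ± 16.4 CPM, the stem cell nuclear receptor NR2E1 from 4.01 ± 0.612 to 65.8 ± 2.44 CPM and the progenitor factor RFX4 from 3.45 ± 0.433 to 79.3 ± 6.19 CPM. PROX1 and PRDM8 fell from 44.0 ± 2.13 to 8.93 ± 1.07 CPM and from 29.9 ± 0.0798 to 6.74 ± 1.27 CPM. The like-named prdm8a rose from 0.227 to 2.23 CPM. Factors that pattern the early brain moved both ways within each regional list. The lists name regions, and the region that the cells came from was not measured. Among forebrain factors GSX2, FEZF2 and rx3 rose from 0.840 ± 0.172 to 43.5 ± 1.95 CPM, from 2.21 ± 0.295 to 60.8 ± 3.85 CPM and from 0.235 ± 0.159 to 37.6 ± 1.13 CPM. EOMES (ENSDARG00000104243), DLX6 and BARHL1 (ENSDARG00000019013) fell from 20.2 ± 2.05 to 1.67 ± 0.229 CPM, from 6.05 ± 1.24 to 0.730 ± 0.460 CPM and from 27.1 ± 2.32 to 2.41 ± 0.187 CPM. Among hindbrain factors PTF1A and PAX3 rose from 0.166 ± 0.0504 to 28.2 ± 4.72 CPM and from 0.436 ± 0.40002 to 13.9 ± 0.665 CPM. TLX3 (ENSDARG00000017615) and TAL1 fell from 12.6 ± 2.15 to 1.65 ± 0.517 CPM and from 24.9 ± 1.75 to 3.36 ± 0.832 CPM. By family, 6 of 8 Nkx and 6 of 8 Hox genes tested rose and 0 fell, while 5 of 6 Dlx and 6 of 7 Zic genes fell. Over the 3 regional lists the counts were balanced: 14 rose and 18 fell of 36 telencephalic, 23 and 21 of 54 diencephalic, and 23 and 20 of 53 midbrain and hindbrain factors. The diencephalic and hindbrain medians of 0.12 and 0.05 become -0.36 and -0.44 with library totals.

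Genes of motile cilia mostly rose in radial glia, whose inner surface faces the ventricle. In the motile cilia and ependyma list 78 of 91 genes rose and 1 fell (median log2 1.75). The master regulator of motile cilia FOXJ1 (ENSDARG00000101919) stood at 11.2, 11.8 and 12.8 CPM in the GFP-negative and 87.8, 82.9 and 81.0 CPM in the GFP-positive libraries. The related foxj1b rose from 3.09 ± 0.416 to 34.5 ± 0.967 CPM, FOXN4 from 1.44 ± 0.599 to 29.9 ± 2.70 CPM and RFX2 from 15.3 ± 0.306 to 138 ± 6.86 CPM. Structural genes were lower in level but moved alike: 32 of 37 cilia and flagella associated proteins, 13 of 18 axonemal dyneins and 9 of 13 intraflagellar transport proteins rose. With library totals 3 of the transport proteins are higher and 5 lower, and their median of 0.37 turns to -0.11, where that of all genes is -0.47. Whether ciliated cells apart from radial glia carry the reporter was not tested. The polarity gene crb2b rose from 6.44 ± 0.622 to 82.1 ± 9.62 CPM, FJX1, related to a planar polarity kinase of flies, from 10.4 ± 2.29 to 413 ± 5.23 CPM and the planar polarity cadherin celsr1b from 1.05 ± 0.128 to 14.7 ± 2.88 CPM. The giant cadherin FAT2 of cerebellar granule neurons fell from 97.9 ± 6.05 to 3.56 ± 0.566 CPM. Over the polarity list 34 of 64 rose and 23 fell.

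Extracellular matrix and guidance genes showed large single changes and a weak lean. Of 114 genes 57 rose and 36 fell, and the median of 0.32 turns to -0.16 with library totals. The heparan sulphate carrier gpc5b (ENSDARG00000024588) had 4 counts in all 3 GFP-negative libraries together and 30.31 ± 4.01 CPM in radial glia. The guidance cue NTN1 (ENSDARG00000022531) rose from 13.3 ± 0.102 to 427 ± 33.3 CPM, the receptor phosphatase PTPRZ1 (ENSDARG00000051814) from 9.90 ± 0.994 to 214 ± 12.9 CPM and the hyaluronan link protein hapln1a from 4.83 ± 0.182 to 101 ± 5.63 CPM. The neurite adhesion proteins l1cama and CNTN1 (ENSDARG00000045685) fell from 36.2 ± 3.42 to 3.71 ± 0.650 CPM and from 117 ± 8.09 to 12.1 ± 1.57 CPM. Among ephrins and their receptors 19 of 29 rose and 4 fell, and among protocadherins 9 of 54 rose and 42 fell.

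Cell cycle genes were higher in radial glia by small factors. Of 107 genes 73 rose and 6 fell (median log2 0.72), and with library totals 40 rose and 16 fell. The replication clamp PCNA (ENSDARG00000054155) stood at 62.7, 63.5 and 62.1 CPM in the GFP-negative and 95.1, 89.2 and 95.9 CPM in the GFP-positive libraries, 1.49-fold higher (log2 0.57 ± 0.07 SE, edgeR adjusted p = 3.67e-09). With library totals its log2 fold change was 0.09. The replicative helicase subunit MCM5 rose from 7.33 ± 1.60 to 25.9 ± 1.25 CPM, and GINS2 from 1.62 ± 0.823 to 7.87 ± 1.89 CPM. The G1 cyclin CCND1 moved more, from 9.32 ± 1.13 to 82.4 ± 1.9996 CPM (8.78-fold), as did the cell cycle inhibitor cdkn1a, from 4.02 ± 0.488 to 22.3 ± 2.1996 CPM. The members that fell most were the tubulin TUBB2B (ENSDARG00000039522), the inhibitor cdkn1ca and STMN1, genes that neurons also express.

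Proneural genes were split between the fractions. The proneural factor ascl1a, active in progenitors, rose from 15.6 ± 1.04 to 63.2 ± 4.18 CPM, and the antiproliferative BTG2 from 599 ± 14.95 to 2728 ± 88.6 CPM. Genes of committed neurons fell: NEUROD1 stood at 1115, 1032 and 1126 CPM in the GFP-negative and 106, 98.6 and 114 CPM in the GFP-positive libraries. The difference was 10.3-fold (log2 -3.36 ± 0.07 SE, edgeR adjusted p = 8.75e-32). NEUROD2 fell from 47.7 ± 2.45 to 6.002 ± 1.86 CPM and ELAVL3 from 569.9 ± 13.4 to 188 ± 6.45 CPM. Of 44 proneural and newborn neuron genes 13 rose and 26 fell.

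Mature neuronal genes were lower almost throughout, and remained detectable. The synaptic fusion protein SNAP25 (ENSDARG00000058117) stood at 1233, 1154 and 1291 CPM in the GFP-negative and 96.8, 92.8 and 99.8 CPM in the GFP-positive libraries. It was 12.7-fold lower in radial glia (log2 -3.67 ± 0.06 SE, edgeR adjusted p = 4.03e-34), and its second copy (ENSDARG00000020609) fell from 2217 ± 66.3 to 210 ± 9.23 CPM. Of 60 pan-neuronal genes 55 fell and 4 rose. The rising members that the naming rule reports are DPYSL2 (ENSDARG00000032083, 1.80-fold), ank3b (1.35-fold) and DPYSL5 (ENSDARG00000059311, 1.34-fold), and of these ank3b and DPYSL5 do not rise with library totals (log2 -0.05 and -0.06). By transmitter, 38 of 43 glutamatergic, 36 of 42 GABA and glycine, and 46 of 55 monoamine and cholinergic genes fell. The vesicular glutamate transporter SLC17A7 fell from 23.8 ± 1.14 to 1.29 ± 0.192 CPM and the GABA synthesising enzyme GAD1 (ENSDARG00000027419) from 273 ± 3.81 to 25.7 ± 1.16 CPM.

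Ion channels and receptors of neurons fell as families. Of 96 potassium channel subunits 74 fell and 7 rose, of 38 calcium channel subunits 33 fell and 1 rose, and of 11 sodium channel α subunits 9 fell and 0 rose. The same held for 18 of 21 GABA-A receptor subunits, 26 of 31 ionotropic glutamate receptor subunits and 20 of 23 synaptotagmins. Some receptors ran against this. The metabotropic glutamate receptors GRM2 (ENSDARG00000007195) and GRM3 (ENSDARG00000031712) rose from 47.1 ± 1.22 to 451 ± 10.1 CPM and from 9.10 ± 0.819 to 62.1 ± 4.01 CPM. The noradrenaline receptor ADRA1B (ENSDARG00000041173) rose from 0.286 ± 0.201 to 10.4 ± 0.509 CPM, while ADRB1 fell from 51.8 ± 4.90 to 2.51 ± 0.478 CPM.

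Neuropeptide precursors gave some of the largest falls. PMCH (ENSDARG00000073959), the precursor of melanin-concentrating hormone, stood at 29.6 ± 2.55 CPM in other cells and had 4 counts in all 3 radial glia libraries together. Kisspeptin (kiss1) fell from 30.8 ± 5.296 to 1.36 ± 0.146 CPM, NPY from 150.1 ± 8.23 to 11.3 ± 0.925 CPM and galanin (GAL) from 35.6 ± 3.70 to 2.96 ± 0.377 CPM. Of 49 such genes 38 fell and 7 rose. Oxytocin (oxt) was an exception, at 46.1, 49.8 and 50.3 CPM in the GFP-negative and 114, 99.2 and 123 CPM in the GFP-positive libraries. It was 2.29-fold higher in the GFP-positive libraries (log2 1.196 ± 0.08 SE, edgeR adjusted p = 2.28e-15), with no overlap between the fractions. The part of neuronal RNA in the GFP-positive values was not tested. The granin SCG3 rose from 252 ± 15.7 to 587 ± 22.4 CPM.

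Genes of other cell types were lower in radial glia to varying degrees, and some were higher. The myelin gene mbpa stood at 5958, 5548 and 6138 CPM in the GFP-negative and 1659, 1615 and 1785 CPM in the GFP-positive libraries. It was 3.49-fold lower in the GFP-positive libraries and still abundant there. The part of oligodendrocyte RNA in the radial glia values was not tested. Of 26 genes of myelinating oligodendrocytes 15 fell and 8 rose, the largest rise being that of ENPP6 (3.14 ± 0.402 to 98.2 ± 1.45 CPM), a choline phosphodiesterase that marks newly formed oligodendrocytes in mice. Of 24 precursor genes 13 fell and 9 rose, including bcan, which rose from 48.9 ± 1.57 to 351 ± 19.4 CPM. Of 52 endothelial genes 33 fell and 15 rose. The vascular endothelial receptor kdrl fell from 8.16 ± 0.323 to 1.90 ± 0.806 CPM and the endothelial cadherin cdh5 from 7.22 ± 0.529 to 0.964 ± 0.195 CPM, but robo4 rose from 3.92 ± 1.16 to 126 ± 9.81 CPM. Genes of mural cells, fibroblasts and meninges had no common direction, with 29 higher and 25 lower of 65, and a median of 0.03 that becomes -0.45 with library totals. There the prostaglandin D synthase genes ptgdsb.1 and ptgdsb.2 and the matrix genes DCN and SPARC rose 12.5-fold, 17.6-fold, 15.17-fold and 12.2-fold, and the pericyte genes ABCC9 and NDUFA4L2 (ENSDARG00000103114) fell 9.78-fold and 10.3-fold. Of 16 erythrocyte genes 10 fell and 3 rose, of 13 neutrophil genes 10 fell and 2 rose, of 46 cerebellar neuron genes 34 fell and 8 rose, and of 26 pituitary, pineal and photoreceptor genes 18 fell and 3 rose.

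Microglial genes were only weakly depleted from the radial glia fraction. The macrophage perforin MPEG1 (ENSDARG00000055290) stood at 118, 119 and 128 CPM in the GFP-negative and 41.7, 38.8 and 45.3 CPM in the GFP-positive libraries. It was 2.91-fold lower in radial glia, without overlap (log2 -1.54 ± 0.07 SE, edgeR adjusted p = 8.96e-21). The complement gene c1qb stood at 31.6, 32.9 and 32.6 CPM in the GFP-negative and 22.3, 20.2 and 25.1 CPM in the GFP-positive libraries, a difference of 1.44-fold. The phagocytic receptor havcr1 was 1.27-fold higher in radial glia, was not called without GFP-negative replicate 2 (edgeR adjusted p = 0.073) and has a log2 of -0.14 with library totals, and the scavenger receptor marco stood at 11.5 ± 2.80 and 10.7 ± 1.29 CPM and did not pass the test. With library totals marco was called lower (log2 -0.57, edgeR adjusted p = 0.0018). Of 54 microglia and macrophage genes 30 fell and 12 rose, with a median log2 of -0.48, against -2.55 for 36 lymphocyte and -2.41 for 43 keratin and surface epithelium genes. The rising members include GLUL (ENSDARG00000099776), which is also in the radial glia list, and the SALL1 copy ENSDARG00000074319 (12.3 to 114 CPM). The SALL1 copy ENSDARG00000075891 fell from 9.21 to 2.85 CPM. The part of microglial RNA in the radial glia values was not tested.

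**Figure D3:**
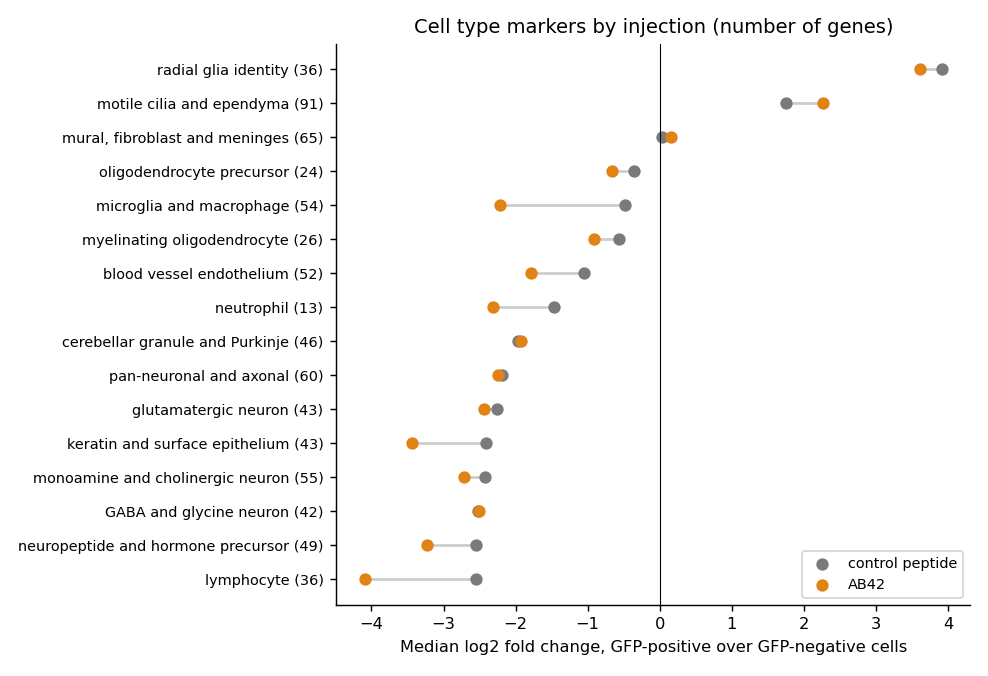
Median log2 fold change of GFP-positive over GFP-negative cells for 16 lists of cell type markers, after the control peptide (grey) and after AB42 (orange), each over the genes tested. The radial glia and cilia medians lie to the right of 0 after both injections, and the largest shift is that of the microglia list, from -0.48 to -2.22.

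The fraction comparison was repeated in the AB42 libraries, with the same count filter and the same estimate of the spread. After AB42, 7286 genes (36%) were higher and 7622 (37.7%) lower in GFP-positive cells. Of the 14782 genes called after CPP, 12408 were called in the same direction after AB42, 317 in the opposite direction and 2057 not at all. Among the 8731 genes changed at least 2-fold after CPP these numbers were 8220, 27 and 484. The radial glia markers had medians of 3.91 after CPP and 3.61 after AB42, and her4.1 stood at 28.9 ± 1.03 and 1892 ± 120.3 CPM in the AB42 fractions, a log2 fold change of 6.03.

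Where the 2 fraction comparisons differed, immune and epithelial genes led. The difference of the 2 log2 fold changes passed an adjusted p of 0.05 with a size of at least 1 for 1653 genes (8.17%). Of these 997 were further from 0 after AB42 than after CPP and 656 were closer to 0 or had crossed it. Over all genes 1485 of them had a lower value after AB42 and 168 a higher one. In the microglia and macrophage list 41 of 54 genes passed with a lower value after AB42 and 0 with a higher one. The lymphocyte and the keratin lists had 17 of 36 and 18 of 43 such genes with a lower value and 0 and 0 with a higher one, whereas the radial glia list had 1 of 36. For c1qb the log2 fold change went from -0.53 after CPP to -2.37 after AB42, with 32.4 ± 0.664 and 22.6 ± 2.47 CPM in the GFP-negative and GFP-positive cells of CPP brains and 132 ± 2.12 and 25.7 ± 2.73 CPM in those of AB42 brains. The level in GFP-positive cells was close after both injections, and that in GFP-negative cells was higher after AB42. MPEG1 gave 122 ± 5.66 and 41.9 ± 3.25 CPM after CPP and 273 ± 5.39 and 35.9 ± 1.89 CPM after AB42. For other genes the level in GFP-positive cells was the one that differed more. The interleukin il1b went from a log2 of -0.40 to -3.24, with 23.2 ± 0.847 and 17.5 ± 2.51 CPM in GFP-negative and GFP-positive cells after CPP and 25.8 ± 0.791 and 2.75 ± 0.348 CPM after AB42. The keratin krt5 went from -2.80 to -6.04, with 712 ± 21.3 and 102 ± 12.3 CPM after CPP and 809.5 ± 75.4 and 12.5 ± 3.66 CPM after AB42. Of the cilia list, 7 of 91 genes passed with a higher value after AB42 and 1 with a lower one. KCNJ10 (ENSDARG00000105022) went from 5.72 to 7.42 and PMCH from -7.94 to -4.64. Few counts lie behind the lower fraction of both genes. KCNJ10 stood at 0.481 ± 0.238 CPM in GFP-negative cells after CPP and at 0.155 ± 0.0243 CPM after AB42. The GFP-positive and GFP-negative libraries of 1 injection differ in other ways as well, so which fraction moved was read from the levels and not from the difference alone.

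The fish genome carries many genes as 2 copies, and some copies went opposite ways between the fractions. Pairs were formed from exactly 2 genes tested whose symbols are equal after removal of a final a or b, and the symbol alone does not establish that they are duplicates. Of 2508 such pairs 1628 had both genes called. In 411 both rose, in 681 both fell, and in 536 they went opposite ways, 177 of them by at least 2-fold each. Pairs that shared a direction thus outnumbered those that did not. Falls were more common than rises among these genes, which by itself raises the number of pairs that share a direction. Near-identical copies may also share reads. Whether copies agreed beyond this was not tested. The muscarinic acetylcholine receptor chrm4b rose from 0.537 ± 0.242 to 28.0 ± 4.03 CPM and CHRM4 (ENSDARG00000069254) fell from 30.28 ± 0.442 to 2.60 ± 0.382 CPM, the largest gap. The secreted protein mfge8a, which bridges dying cells to phagocytes in mammals, stood at 24.2, 24.8 and 19.0 CPM in the GFP-negative and 1532, 1549.7 and 1580.4 CPM in the GFP-positive libraries. Its counterpart MFGE8 (ENSDARG00000045803) stood at 43.1, 41.4 and 41.0 CPM in the GFP-negative and 7.19, 7.03 and 5.68 CPM in the GFP-positive libraries. The cartilage acidic protein CRTAC1 rose as ENSDARG00000059826 from 5.50 ± 0.839 to 580.2 ± 27.0 CPM and fell as ENSDARG00000102517 from 3.17 ± 0.525 to 0.827 ± 0.158 CPM. The FGF receptor-like gene FGFRL1 rose from 4.06 ± 1.37 to 59.4 ± 4.23 CPM and fgfrl1b fell from 2.26 ± 0.567 to 0.191 ± 0.181 CPM. The polarity gene PARD6G rose from 9.35 ± 0.615 to 50.9 ± 3.67 CPM and pard6ga fell from 32.1 ± 0.974 to 1.35 ± 0.725 CPM. The other pairs among the 10 with the largest gaps were PALMD and palmdb, gdpd4b and GDPD4, SHISA2 and shisa2a, and cracdlb and cracdla, with gaps of 7.004 to 7.94 on the log2 scale, and the copies of TMED1, of which ENSDARG00000031325 had 12 counts in other cells and 0 in radial glia, too few for a gap.

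**Figure D4:**
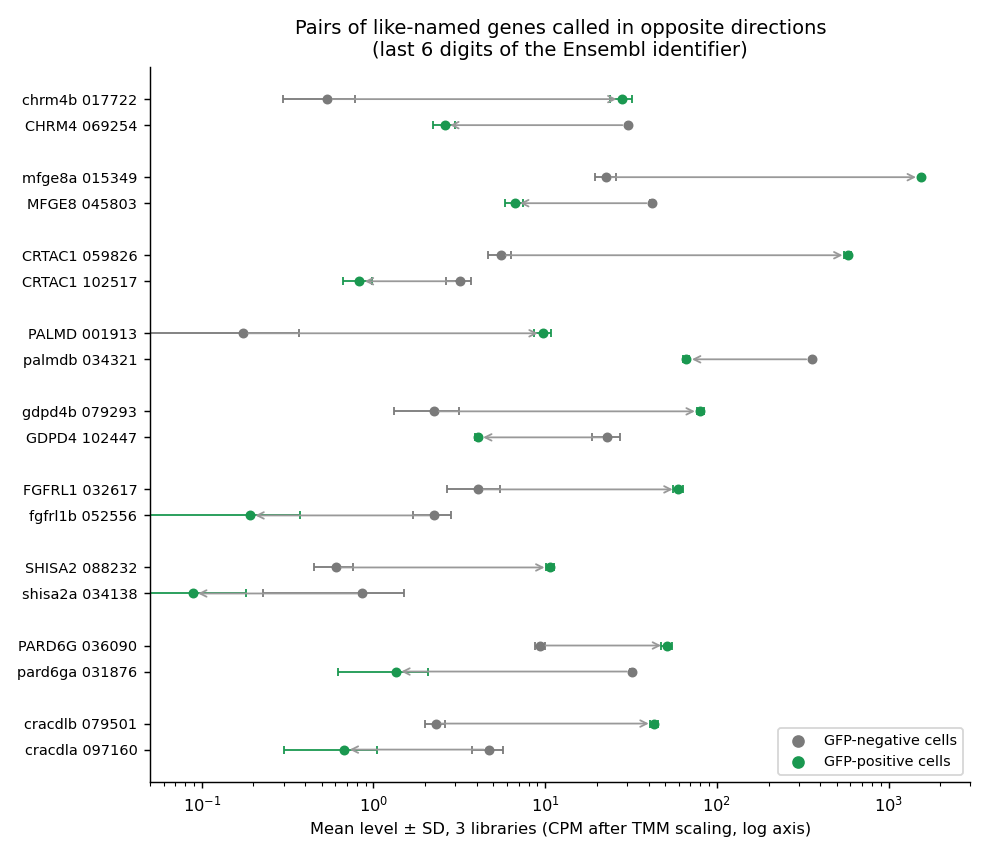
Level of both genes of 9 pairs, TMED1 left out, in other cells (grey) and radial glia (green), as mean CPM after TMM scaling on a log axis, joined by an arrow from other cells to radial glia, with SD bars over 3 libraries. In each pair the upper gene is higher and the lower gene lower in radial glia, and SD bars are cut at the left axis limit of 0.05 CPM.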

How the data were processed

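Brain cells sorted by flow cytometry were profiled by RNA sequencing of poly-dT primed, PCR-amplified cDNA, per the labels' protocols. The deposited table holds whole-number read counts per Ensembl gene, made by the authors with BWA 0.7.12 and featureCounts on GRCz10 (danRer10), per the submitters' processing notes. The strand setting, the annotation release and the treatment of reads that match several genes are not stated in any source used here, so overlapping genes and near-identical copies are uncertain. Of 31953 genes, 26121 were given a symbol by the supplied name table, and 4140 share theirs with another gene, for which the identifier is printed. Upper-case symbols are those of human relatives. Coordinates are the first exon start and last exon end of the deposited table. Promoter and protein sequences were not used here.

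Counts were tested with edgeR 4.0.16 in R 4.3.3. filterByExpr with the 4 groups kept 20237 genes, libraries were scaled by TMM, and 4 group means were fitted to all 12 libraries by quasi-likelihood, which leaves 8 residual degrees of freedom. The test was two-sided, the Benjamini-Hochberg adjustment ran over all genes tested, and a gene rose or fell where its adjusted p was under 0.05. Fitted fold changes carry a prior count of 0.125. The standard error is the log2 fold change divided by the square root of F. CPM use TMM-scaled totals, and TPM use the exon lengths of the deposited table. Reads carry no molecular identifiers, so errors from counting alone understate the spread.

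36 gene lists and 38 families defined by symbol were described. Members and lists were chosen with earlier results of these data known. Of 2038 listed symbols 1290 matched directly, 557 after removal of a paralog letter and 191 not at all. Genes were named by a rule: in each list up to 6 called members with the largest change, no overlap of the fractions and at least 5 CPM in the higher one, up to 3 against the list's direction, the 20 largest rises and falls, the 15 highest TPM of each fraction, the 10 pairs with the largest gap and 20 genes fixed by name. The text gives a selection of these, and names the genes chosen after their values were seen. Some of the genes it selects are not reported here. The fit was tested on simulated data for the control-peptide comparison, with 20237 genes, of which 50 changed at each fold size. It called 50% of genes changed 1.5-fold, 74% at 2-fold, 98% at 4-fold and 100% at 8-fold. Of all genes called there, 5.85% were unchanged ones. Far fewer genes changed in the simulation than were called in the data (73%), so these shares need not hold for the data. The gene DLD was taken out of the lists of Notch and newborn neuron genes after the values were seen, since this symbol names a metabolic enzyme. The alternatives were RLE size factors, library totals, TMM without malat1 and the hsp70 genes, both other count filters, the 6 control-peptide libraries alone, DESeq2 1.42.0, a replicate block, and each control-peptide library left out in turn.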

Additional observations from a re-analysis of the deposited data

Results flagged for a closer look

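The genes below were picked out because their difference between the fractions was not the same after the control peptide CPP and after AB42. The difference of the log2 fold changes, AB42 minus CPP, passed an adjusted p of 0.05 by edgeR's quasi-likelihood test with a size of at least 1. With 3 libraries a group, single libraries were not screened for outliers.

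Genes of microglia and immunity had a lower ratio of GFP-positive to GFP-negative cells after AB42 than after CPP, with differences of -1.39 for MPEG1, -1.84 for c1qb, -2.24 for havcr1, -2.06 for marco and -2.83 for il1b. The epithelial genes krt5 and cldn7b gave -3.24 and -5.78. The size for cldn7b rests on few counts, since GFP-positive cells held 0.0640 ± 0.0569 CPM of it after AB42. In the vascular group the values were -1.37 for robo4 and -1.81 for NDUFA4L2 (ENSDARG00000103114).

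Some genes of radial glia stood out less from other cells after AB42 than after CPP, among them slc7a11 (-1.40), ALDH1A2 (-1.62), DIO2 (-1.29), chrm4b (-1.24) and CRTAC1 ENSDARG00000059826 (-1.25). KCNJ10 (ENSDARG00000105022) and acsl2 went the other way, with 1.70 and 1.37. For KCNJ10 the GFP-negative level was below 1 CPM, at 0.481 ± 0.238 after CPP and 0.155 ± 0.0243 after AB42. Its GFP-positive level was 25.7 ± 2.60 and 28.2 ± 2.86 CPM. Other genes, lower in GFP-positive than in GFP-negative cells after CPP, had a ratio of the fractions that was lower still after AB42. They included RBP4 (-1.15), mfng (-1.53), dkk1b (-1.12), FAT2 (-1.27), GJD2 ENSDARG00000070781 (-1.16) and SLC4A4 ENSDARG00000044808 (-1.03). The fraction that moved differed by gene. For RBP4 the GFP-positive level was 6.04 ± 1.77 CPM after CPP and 2.70 ± 0.657 CPM after AB42. Its GFP-negative level was 49.3 ± 2.06 and 48.6 ± 3.30 CPM. For dkk1b the GFP-positive level was 1.08 ± 0.173 and 2.12 ± 0.446 CPM, and the GFP-negative level 19.1 ± 0.491 and 78.8 ± 1.79 CPM.

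Among genes of transmitters and peptides SLC17A7 had -1.59, kiss1 -1.60, NPY -1.24 and GAL -1.83, while PMCH had 3.31 and oxt 1.05. The gonadotropin-releasing hormone gene gnrh2 had -11.88, a fitted value that depends on the prior count, since its CPP GFP-negative libraries had 0 counts.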

How the results depend on the processing

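The log2 fold change of her4.1 ran from 5.66 with library totals to 6.19 without GFP-positive replicate 2. The cells were sorted by a her4.1 reporter, so this range does not carry over to other genes. With library totals 4630 genes were higher, 2621 of them at least 2-fold, and 10673 were lower. With each library left out in turn, 6736 to 7283 genes were higher, 6951 to 7535 lower, 3714 to 4031 at least 2-fold higher and 4634 to 4891 at least 2-fold lower. DESeq2 called 6936 higher and 7386 lower. Medians that changed sign with library totals were those of glucose and glycogen (-0.42), matrix and guidance (-0.16), diencephalic (-0.36) and hindbrain factors (-0.44), mural cells (-0.45), solute carriers (-0.40), Irx factors (-0.19) and intraflagellar transport (-0.11). With RLE size factors glucose and glycogen (-0.000829), hindbrain (-0.0140) and mural medians (-0.0344) did so. Single genes that changed sign were SOX9 ENSDARG00000043923 (-0.17), ank3b (-0.0500), DPYSL5 (-0.0623) and havcr1 (-0.14) with library totals, and marco without GFP-negative replicate 2 (0.00766, with a range down to -0.29 over the libraries left out). The construction of the scalings, which set the zero point, shifts all genes together. Of the 224 genes named, 222 have a value under all 14 alternatives, and 214 of these kept direction and call throughout. Many of them were named for large changes without overlap of the fractions, so this share does not carry over to all genes.

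The labels do not say whether equal replicate numbers pair the samples. Deviations from the group means were compared between same-numbered GFP-positive and GFP-negative libraries. They correlated at -0.00789, 0.0430 and 0.0611 after CPP and at 0.0370, 0.0296 and 0.0705 after AB42. Each GFP-positive library correlated best with the GFP-negative library of its own number, except CPP GFP-positive 1. That library correlated best with CPP GFP-negative 2, at 0.0287. Correlations this small do not settle whether the libraries are paired. With the replicate block 7544 genes were higher, 7257 lower and 1628 differed between injections by at least 2-fold. Depth limits the fold changes of genes that stand below 1 CPM in a fraction, where few counts lie behind each value.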

Other observations

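Cytosolic ribosomal protein genes mostly rose, by little. Of 75 tested 74 rose and 1 fell, with a median log2 fold change of 0.61 that is 0.13 with library totals, and 1 rose at least 2-fold. With library totals 36 rose and 2 fell, and after AB42 47 were higher. Kinesins, the motors of transport along microtubules, were divided, with 13 of 41 higher and 19 lower. The axonal motors KIF5A and kif5c fell from 291 ± 21.6 to 42.4 ± 3.31 CPM and from 90.4 ± 7.55 to 10.5 ± 1.60 CPM, and KIF7, which acts in hedgehog signalling at the cilium, rose from 11.6 ± 2.08 to 30.2 ± 4.41 CPM. The Klf factors were likewise divided (8 higher and 9 lower of 20). KLF15 and KLF11 (ENSDARG00000013794) rose from 8.398 ± 0.443 to 38.7 ± 0.513 CPM and from 68.7 ± 2.22 to 368 ± 22.7 CPM. These genes were chosen after their values were seen.

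Matrix receptors moved as single genes. Of 33 integrin genes 11 rose and 15 fell. The chains of the vitronectin receptor, ITGAV and ITGB5, rose from 17.0 ± 0.933 to 66.9 ± 2.69 CPM and from 35.5 ± 4.43 to 185 ± 8.25 CPM. Of 44 collagens 13 rose and 17 fell. The basement membrane collagen col18a1a and the fibrillar col5a3a rose from 4.68 ± 0.252 to 24.8 ± 4.07 CPM and from 1.53 ± 0.401 to 13.3 ± 1.199 CPM. These genes too were chosen after their values were seen.

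The peptide gene gnrh2 had 0 counts in the CPP GFP-negative and 84 counts in the CPP GFP-positive libraries, 3 of each. After AB42 the other cells held 0.139 ± 0.182 CPM of it, and the radial glia 0 ± 0.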
